A study of Mus musculus with 12 samples.

Results

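B cell marker genes were followed in peritoneal exudate cells, a mixed population washed out of the abdomen, after an injection of interferon beta (IFN-β). The 8 genes were Cd79a, Cd79b, Blk, Cd22, Cr2, Fcer2a, Pax5 and Ebf1, taken as every non-control probe that the array files name by one of these symbols. They had 12 of the 41174 probes and were 8 of the 18274 genes tested and the 27670 on the array. All 12 probes passed the filter on dim probes, so no gene was lost. Total RNA was hybridised to 12 single-colour Agilent mouse arrays in 4 groups of 3: Ifnar2-/- mice given IFN-β, Ifnar2-/- mice given phosphate-buffered saline (PBS), wild-type mice given IFN-β and wild-type mice given PBS. All were females of 8 weeks with the strain label 129S2/SvPas*BALB/c, and the cells were collected 3 h after an intraperitoneal injection. The dose is stated as 10000 IU/ml with no volume. Ifnar2-/- mice lack Ifnar2 in every cell and not in B cells alone, and each array held cells of different mice, so that replicate spread covers variation from animal to animal. The RNA came from all cells of the wash, so fewer B cells and less RNA per B cell cannot be told apart.

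IFN-β acts through a receptor of the chains IFNAR1 and IFNAR2, and its signal reaches transcription factors that bind interferon response elements. B cells sense antigen through surface immunoglobulin. CD79A and CD79B are its signalling chains, BLK is a Src-family kinase near it, and CD22 is a sialic-acid-binding co-receptor that dampens its signal. CR2 (CD21) binds complement fragments on antigen, and FCER2A (CD23) is the low-affinity IgE receptor. EBF1 and PAX5 are the transcription factors that establish and hold B cell identity, and EBF1 is known to act at Cd79a and Pax5. The mouse peritoneal cavity holds B-1 cells, which carry little CD23, beside B-2 cells, which carry CD23 and CD21.

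Between 59.4% and 71.6% of spots were well above background on an array. The 4 arrays of the third slide, all Ifnar2-/-, had 59.4% to 62.5%, and the other 8 arrays had 65.2% to 71.6%. The third slide held replicates 2 and 3 of both Ifnar2-/- groups, the second held their replicate 1 with replicates 2 and 3 of IFN-β-treated wild-type mice, and the first held the other 4 wild-type arrays. Of the Ifnar2 probes, A_52_P190405 was at 2.69 to 3.20 on the Ifnar2-/- arrays and 4.42 to 4.87 on the wild-type arrays. The other, A_51_P338924, was higher on the Ifnar2-/- arrays, at 2.49 to 3.11, against 1.08 to 1.78 on the wild-type arrays. The 2 probes thus went opposite ways, and no source used here names the deleted stretch. Levels here and below are log2 of the processed signal minus log2 of the array's 75th percentile.

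The defining B cell genes were present on every array. Each probe exceeded background on all 12 arrays, with the exception of 1 Ebf1 probe that did so on 11, and none was saturated or an outlier. The 5 probe sequences shown have a reading frame with no stop codon over their whole length, as do other probes of the B cell genes. The sequences are given because a probe's bases define what its signal measures. The Cd79a, Blk, Cd22 and Pax5 probes below lie across an intron: their 60 bases span 258, 1138, 1325 and 32555 bases of the mm7 genome named in the file headers. They lie at chr7:21688822-21689079 (plus strand), chr14:58242375-58243512, chr7:27815904-27817228 and chr4:44551296-44583850 (minus strand). The Cr2 probe, at chr1:194717651-194717710 on the minus strand, is the dimmer of 2 for that gene. The Cd22 and Pax5 probes shown are also the dimmer of 2 for their genes. No base is set in capitals in these 5 sequences.
Cd79a A_52_P651316: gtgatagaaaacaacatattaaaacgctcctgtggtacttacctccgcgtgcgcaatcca
Blk A_52_P15405: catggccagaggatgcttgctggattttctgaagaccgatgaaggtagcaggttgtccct
Cd22 A_52_P466268: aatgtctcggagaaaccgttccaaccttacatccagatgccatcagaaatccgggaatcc
Pax5 A_51_P122855: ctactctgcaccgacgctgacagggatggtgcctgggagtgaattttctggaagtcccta
Cr2 A_52_P490788: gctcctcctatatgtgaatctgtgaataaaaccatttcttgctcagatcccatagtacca

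RefSeq promoters (GRCm38.p6) were at hand for 6 of the 8 genes, with 9 promoters in all, and none for Cd79b and Blk. The 250 bases before the start are shown for Cr2, Fcer2a and Ebf1, which fell together in wild-type mice, and for Cd22, which did not. Capitals mark letters that match a searched motif on either strand. The full EBF palindrome, TCCC and GGGA with 2 bases between, stood in the Cd22 promoter at -49 from the start, and in 0.779% of 32851 promoters. The shorter EBF form TCNNGGGA, in 15.1% of promoters, stood at -101 in Fcer2a as well as at -175 in Cd79a, -137 in Pax5 and -167 in the second Fcer2a promoter. The interferon response element, GAAA repeated with 2 bases between, in 2.98% of promoters, had 1 match among the 9, at -155 in Ebf1. The PU.1 form AGGAAGT (7.69% of promoters) matched at -55 in Cd79a. The STAT form TTCNNNGAA (7.02%) and the octamer ATGCAAAT (1.60%) had no match in these windows, and no match overlapped another. The regions shown are chr1:195176720-195176969, chr8:3694175-3694424 and chr7:30879029-30879278 on the minus strand and chr11:44617850-44618099 on the plus strand.
Cr2: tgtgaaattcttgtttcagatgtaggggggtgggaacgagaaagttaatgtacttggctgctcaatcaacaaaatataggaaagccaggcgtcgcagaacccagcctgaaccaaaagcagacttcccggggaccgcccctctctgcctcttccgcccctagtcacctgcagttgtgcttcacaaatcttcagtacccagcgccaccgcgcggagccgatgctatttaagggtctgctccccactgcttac
Fcer2a: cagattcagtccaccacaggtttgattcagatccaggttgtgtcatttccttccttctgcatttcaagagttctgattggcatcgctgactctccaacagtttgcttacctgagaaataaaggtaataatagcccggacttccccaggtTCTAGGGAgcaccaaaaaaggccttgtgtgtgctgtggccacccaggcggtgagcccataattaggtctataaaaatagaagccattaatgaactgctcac
Ebf1: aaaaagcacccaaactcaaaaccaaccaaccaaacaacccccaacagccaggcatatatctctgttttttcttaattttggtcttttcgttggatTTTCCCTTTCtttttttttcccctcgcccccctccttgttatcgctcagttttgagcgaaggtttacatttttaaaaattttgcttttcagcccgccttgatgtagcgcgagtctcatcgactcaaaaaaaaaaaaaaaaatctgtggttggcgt
Cd22: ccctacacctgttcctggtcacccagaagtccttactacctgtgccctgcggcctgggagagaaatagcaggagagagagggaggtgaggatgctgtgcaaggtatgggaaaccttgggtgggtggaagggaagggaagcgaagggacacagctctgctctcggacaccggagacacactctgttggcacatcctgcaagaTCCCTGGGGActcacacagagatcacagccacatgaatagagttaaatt

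The first question was whether IFN-β moved the B cell genes of wild-type mice together. It did not move them alike: 4 of 8 fell by 2.80-fold to 5.45-fold and the other 4 did not pass the test. The complement receptor Cr2, the IgE receptor Fcer2a, the transcription factor Ebf1 and the kinase Blk were lower on all 3 IFN-β arrays than on any PBS array. The antigen receptor chains Cd79a and Cd79b were lower by less and their groups overlapped, and Cd22 and Pax5 were close to level. Across all genes 39.4% were called at an adjusted p under 0.05 in limma, 21.8% lower and 17.6% higher. How many of all genes had no overlap of arrays was not counted. The median log2 fold change of the 8 genes was -1.08, against -0.04 over all genes tested.

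Among the receptors, Fcer2a was at -0.88, -0.96 and -0.97 on the IFN-β arrays of wild-type mice and at 1.25, 1.38 and 1.90 on the PBS arrays. The IFN-β arrays lay within 0.09 of each other and far below every PBS array. The log2 fold change was -2.45 (SE 0.45, 95% interval -3.44 to -1.46, adjusted p = 0.00148), a 5.45-fold fall. Cr2 was at -2.52, -2.15 and -2.30 after IFN-β and at -0.61, -0.56 and 0.46 after PBS. Its groups did not overlap, and PBS replicate 3 stood about a log2 unit above the other PBS arrays. The log2 fold change was -2.09 (SE 0.41, interval -2.99 to -1.18, adjusted p = 0.00226), a 4.26-fold fall.

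Ebf1 was at -0.81, -0.14 and -0.98 on the IFN-β arrays and at 1.92, 1.03 and 1.77 on the PBS arrays of wild-type mice. No IFN-β array reached the PBS range, and the log2 fold change was -2.21 (SE 0.29, interval -2.86 to -1.57, adjusted p = 0.000171). Pax5, its partner in B cell identity, was at 1.57, 2.13 and 1.10 after IFN-β and at 1.80, 1.33 and 1.84 after PBS. The groups overlapped, and the log2 fold change was -0.06 (SE 0.29, interval -0.70 to 0.59, adjusted p = 0.909). The interval of Pax5 lay wholly above that of Ebf1.

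Of the genes around the antigen receptor, Blk was at -1.67, -1.20 and -1.53 after IFN-β and at 0.12, -0.66 and 0.58 after PBS in wild-type mice. The groups did not overlap, although PBS replicate 2 stood low, and the log2 fold change was -1.48 (SE 0.27, interval -2.08 to -0.88, adjusted p = 0.00149). Cd79a was at 0.31, 0.45 and 0.03 after IFN-β and at 1.26, 0.37 and 1.18 after PBS. PBS replicate 2 fell inside the IFN-β range, and the log2 fold change was -0.68 (SE 0.27, interval -1.28 to -0.07, adjusted p = 0.0746). Cd79b was at 6.54, 6.80 and 6.47 after IFN-β and at 6.99, 6.64 and 7.24 after PBS, again with PBS replicate 2 inside the IFN-β range. Its log2 fold change was -0.35 (SE 0.17, interval -0.72 to 0.02, adjusted p = 0.13). Cd22 was at 3.08, 3.41 and 2.88 after IFN-β and at 3.32, 2.66 and 3.07 after PBS, with overlapping groups and a change of 0.10 (SE 0.22, interval -0.39 to 0.59, adjusted p = 0.759).

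The intervals of the 4 genes that were not called all lay wholly above -1.48, the estimate of Blk and the smallest of the 4 that fell. The intervals of Blk (-2.08 to -0.88) and Cr2 (-2.99 to -1.18) nevertheless overlapped that of Cd79a (-1.28 to -0.07). Relative to Cd79a alone, Blk changed by -0.81 and was not called (adjusted p = 0.0946). Without wild-type PBS replicate 2, 6 genes were called, since Cd79a (-0.96, adjusted p = 0.0148) and Cd79b (-0.51, adjusted p = 0.0377) then passed. Cd79a also passed with no scaling between arrays (-0.84, adjusted p = 0.0285) and without Ifnar2-/- PBS replicate 3 (adjusted p = 0.0417), and Cd79b passed after quantile normalization (-0.59, adjusted p = 0.0337). Cr2, Fcer2a, Ebf1 and Blk were called in each of 22 alternative settings. These settings are not independent: they reuse the same arrays, and leaving out an Ifnar2-/- array does not change the wild-type estimates. Except with the mean of a gene's probes, they also use the same probe of each gene.

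**Figure D1:**
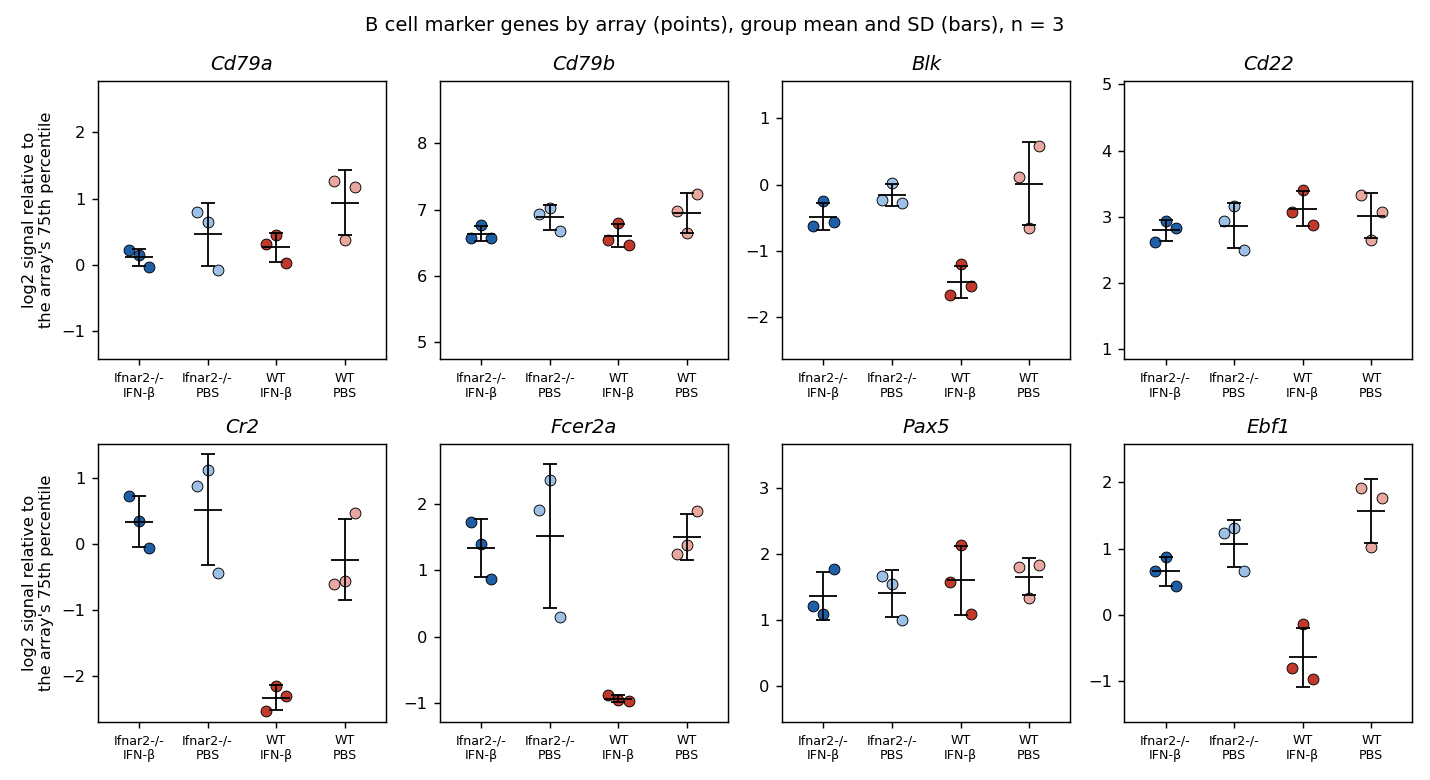
Level of each B cell marker gene on each array (points, log2 signal relative to the array's 75th percentile, vertical axes of equal length) with the group's mean and SD (n = 3), for Ifnar2-/- mice after IFN-β and PBS and wild-type mice after IFN-β and PBS. In Cr2, Fcer2a, Ebf1 and Blk the IFN-β arrays of wild-type mice lie below all other arrays, while in Cd22 and Pax5 the 4 groups overlap.

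In Ifnar2-/- mice the same injection left all 8 genes uncalled, against a background of 1.13% of genes called. No gene had an unadjusted p under 0.05 either, and the other 22 settings made no call. Each of the 8 estimates was below 0, from -0.41 for Ebf1 to -0.04 for Pax5, with a median of -0.22, against a median of -0.05 over all genes. Fcer2a was at 1.74, 1.40 and 0.86 after IFN-β and at 1.92, 2.36 and 0.30 after PBS, so that the groups overlapped. Its log2 fold change was -0.19, with an interval from -1.18 to 0.80 that includes a fall of more than a log2 unit. PBS replicate 3 was the lowest of the 6 arrays, and without it the estimate for Fcer2a was -0.80 (adjusted p = 0.229).

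Cr2 was at 0.72, 0.35 and -0.05 after IFN-β and at 0.87, 1.12 and -0.43 after PBS in Ifnar2-/- mice (log2 fold change -0.18, interval -1.09 to 0.72, adjusted p = 0.851). Ebf1 was at 0.67, 0.88 and 0.44 after IFN-β and at 1.24, 1.32 and 0.66 after PBS (log2 fold change -0.41, interval -1.06 to 0.23, adjusted p = 0.487). Blk was at -0.63, -0.26 and -0.57 after IFN-β and at -0.24, 0.03 and -0.28 after PBS (log2 fold change -0.33, interval -0.93 to 0.27, adjusted p = 0.561). In all 3 genes the groups overlapped by at least 1 array. Cd79a, Cd79b, Cd22 and Pax5 had estimates of -0.35, -0.25, -0.07 and -0.04.

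**Figure D2:**
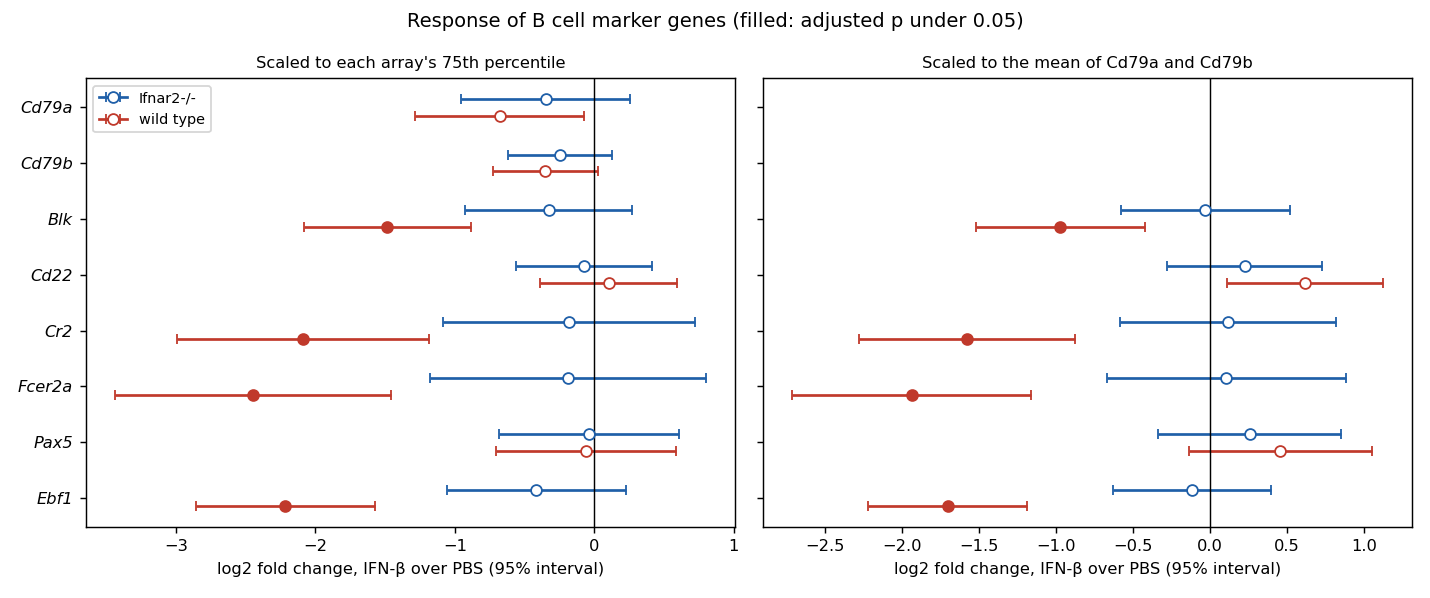
Log2 fold change of IFN-β over PBS with its 95% interval for each B cell marker gene in Ifnar2-/- and wild-type mice (filled points: adjusted p under 0.05), with arrays scaled to their 75th percentile (left) and to their mean of Cd79a and Cd79b (right). In wild-type mice Blk, Cr2, Fcer2a and Ebf1 are filled on both scales, from -2.45 to -1.48 on the left and from -1.93 to -0.97 on the right, and no Ifnar2-/- point is filled.

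Whether the responses of the genotypes differed was tested as the Ifnar2-/- response minus the wild-type response. This difference was called for 3 of 8 genes, all higher, against 17.8% of all genes (8.68% higher). It was 2.26 for Fcer2a (SE 0.63, adjusted p = 0.0319), 1.91 for Cr2 (SE 0.58, adjusted p = 0.0446) and 1.80 for Ebf1 (SE 0.41, adjusted p = 0.0123). Blk had 1.16 (SE 0.38, adjusted p = 0.0635) and did not pass. For Cd79a, Cd79b, Cd22 and Pax5 the difference lay between -0.18 and 0.33. The signs of Cr2, Fcer2a and Ebf1 were the same in all 21 other settings. The call of Ebf1 held without each array in turn, that of Fcer2a without 5 of the 12 arrays and that of Cr2 without 2. Fcer2a lost it (adjusted p = 0.055 to 0.0761) without any wild-type IFN-β array, wild-type PBS replicates 2 and 3 or Ifnar2-/- IFN-β replicates 1 and 2. Cr2 kept it without Ifnar2-/- PBS replicate 2 or Ifnar2-/- IFN-β replicate 3 and lost it without each other array (adjusted p = 0.0504 to 0.101). Blk passed without wild-type PBS replicate 2 (1.49, adjusted p = 0.00626), and with all arrays it passed after normexp background correction (1.04, adjusted p = 0.0481), with no scaling (1.44, adjusted p = 0.0362) and with a trended, robust eBayes step (1.16, adjusted p = 0.0452). Cr2 did not pass after normexp (1.47, adjusted p = 0.0816) or quantile normalization (1.85, adjusted p = 0.0506), or with no filter on dim probes (adjusted p = 0.0881), where Fcer2a did not pass either (adjusted p = 0.066). With the slide as a block none of the 3 passed (adjusted p = 0.123 for Fcer2a, 0.103 for Cr2 and 0.0543 for Ebf1).

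After IFN-β, 4 genes were higher in Ifnar2-/- than in wild-type mice, against 38.5% of all genes called (21.3% higher). They were the same 4 that fell in wild-type mice, and both comparisons use the IFN-β arrays of wild-type mice. In these 4 genes the arrays of the genotypes did not overlap, and how often that holds over all genes was not counted. Cr2 averaged 0.34 ± 0.39 in Ifnar2-/- mice and -2.32 ± 0.19 in wild-type mice (SD, n = 3 each), higher by 2.66 (SE 0.41, adjusted p = 0.000518). Fcer2a averaged 1.33 ± 0.44 in Ifnar2-/- mice and -0.94 ± 0.05 in wild-type mice, higher by 2.27 (SE 0.45, adjusted p = 0.00241). Ebf1 and Blk were higher by 1.30 (SE 0.29, adjusted p = 0.00506) and 0.98 (SE 0.27, adjusted p = 0.0157). The call of Blk was lost without wild-type IFN-β replicate 1 (0.88, adjusted p = 0.0606) or Ifnar2-/- IFN-β replicate 2 (0.87, adjusted p = 0.058). Cd79a, Cd79b, Cd22 and Pax5 had log2 fold changes of -0.15, 0.03, -0.33 and -0.24 and were not called.

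After PBS no gene was called between Ifnar2-/- and wild-type mice, against 4.88% of all genes, none had an unadjusted p under 0.05, and no other setting made a call. Cr2 had the highest estimate, 0.75 (interval -0.15 to 1.66, adjusted p = 0.329), and Ebf1 the lowest, -0.50 (interval -1.14 to 0.14, adjusted p = 0.361). Fcer2a averaged 1.53 ± 1.09 in Ifnar2-/- mice and 1.51 ± 0.35 in wild-type mice. No slide held PBS arrays of both genotypes, so that slide and genotype cannot be told apart within a slide for this comparison. In order of level, Cr2 ran from Ifnar2-/- PBS and Ifnar2-/- IFN-β through wild-type PBS to wild-type IFN-β. Neighbours among the first 3 overlapped, and the wild-type IFN-β arrays stood below them. Ebf1 and Blk were highest in wild-type PBS and Fcer2a in Ifnar2-/- PBS, and in each the 3 upper groups overlapped with a neighbour. For Cd79a, Cd79b, Cd22 and Pax5 every neighbouring pair of groups overlapped.

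The slides were also compared within themselves. On the first slide, 1 IFN-β array and 3 PBS arrays of wild-type mice differed by -2.39 for Fcer2a, -2.38 for Ebf1, -2.29 for Cr2 and -1.69 for Blk. On the same slide Cd79a and Cd79b differed by -0.63 and -0.41, and Cd22 and Pax5 by 0.06 and -0.08. The slide-blocked fit gave the same values and called the same 4 genes (adjusted p = 0.0279, 0.00572, 0.022 and 0.0177). On the second slide, 1 Ifnar2-/- and 2 wild-type arrays after IFN-β differed by 2.94 for Cr2, 2.70 for Fcer2a, 1.23 for Ebf1 and 0.73 for Blk. With the slide as a block, Cr2 (2.93, adjusted p = 0.00528) and Fcer2a (2.70, adjusted p = 0.0127) passed in that comparison, and Ebf1 (1.30, adjusted p = 0.0515) and Blk (0.77, adjusted p = 0.183) did not. Within the second slide (1 array each) and the third (2 each), IFN-β against PBS in Ifnar2-/- mice differed by -0.18 and -0.20 for Fcer2a and by -0.15 and -0.20 for Cr2.

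To see how the other genes moved relative to the antigen receptor chains, each array was scaled to its own mean of Cd79a and Cd79b. On this scale the median of all genes in wild-type mice was 0.47, and 26.3% of genes were called (4.19% lower). In wild-type mice 4 of the 6 remaining genes were lower after IFN-β: Fcer2a by 1.93 on the log2 scale, Ebf1, Cr2 and Blk. Relative to the pair, Ebf1 stood at -4.23, -3.77 and -4.22 after IFN-β and at -2.20, -2.48 and -2.44 after PBS. The log2 fold change of Ebf1 was -1.70 (SE 0.24, adjusted p = 0.000108). That of Cr2 was -1.58 (SE 0.33, adjusted p = 0.00259) and that of Fcer2a -1.93 (SE 0.36, adjusted p = 0.0012). With the mean of a gene's probes, Cr2 had -0.89 relative to the pair and lost its call (adjusted p = 0.066).

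Blk changed relative to the pair by -0.97 (SE 0.26, adjusted p = 0.0122), and that call was lost with the slide as a block (adjusted p = 0.102), with Cd79a alone in place of the pair (adjusted p = 0.0946), without wild-type PBS replicate 3 (adjusted p = 0.0642) and without wild-type IFN-β replicate 1 (adjusted p = 0.07). Cd22 stood at -0.35, -0.22 and -0.37 after IFN-β and at -0.80, -0.85 and -1.14 after PBS. All 3 IFN-β arrays were above the PBS arrays, but 0.62 (SE 0.24, adjusted p = 0.0667) did not pass, although it did without wild-type PBS replicate 2 (0.66, adjusted p = 0.0332) and with the mean of both Cd22 probes (0.76, adjusted p = 0.0362). Pax5 had 0.46 (SE 0.28, adjusted p = 0.23), also with all 3 IFN-β arrays above the PBS arrays. Both values were near the median of all genes on this scale, and how many of all genes had no overlap of arrays on it was not counted. In Ifnar2-/- mice no gene was called relative to the pair, against 0.657% of all genes, with log2 fold changes from -0.12 to 0.26 and no unadjusted p under 0.05. The difference between responses on this scale was called for Fcer2a (2.04, adjusted p = 0.026), Ebf1 (1.58, adjusted p = 0.00956) and Cr2 (1.69, adjusted p = 0.0431), against 6.02% of genes (1.00% higher), and none of these passed with the slide as a block (adjusted p = 0.138, 0.083 and 0.125). On this scale Ebf1 kept its call without each array in turn. Fcer2a lost it (adjusted p = 0.054 to 0.0668) without wild-type IFN-β replicates 1 or 2, wild-type PBS replicates 2 or 3 or Ifnar2-/- IFN-β replicates 1 or 2, and Cr2 without these and without wild-type IFN-β replicate 3 or Ifnar2-/- PBS replicates 1 or 3 (adjusted p = 0.0581 to 0.125).

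On some PBS arrays all 8 B cell genes lay on 1 side of their group's mean. The share of all genes on that side was not counted, so a shift of the whole array was not tested. On wild-type PBS replicate 2 all 8 genes lay below their group's mean, with a median deviation of -0.34, and on Ifnar2-/- PBS replicate 3 all 8 did, with a median of -0.41. On replicate 3 of wild-type PBS and replicate 2 of Ifnar2-/- PBS all 8 lay above it, with medians of 0.26 and 0.22. No array of the IFN-β groups had all 8 genes on 1 side, with medians from -0.19 to 0.23. Fcer2a and Cr2 deviated most on Ifnar2-/- PBS replicate 3, by -1.23 and -0.95.

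Over the 12 arrays the deviations of Cr2 and Fcer2a had a correlation of 0.93, and those of Cd79b and Blk of 0.92. Pairs that joined Cr2 or Fcer2a with another gene had correlations from 0.28 to 0.70 with a median of 0.51 (12 pairs), and pairs among the other 6 genes from 0.44 to 0.92 with a median of 0.77 (15 pairs). All these values share the arrays, their scaling and the B cell content of each wash, and they are given as a description.

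**Figure D3:**
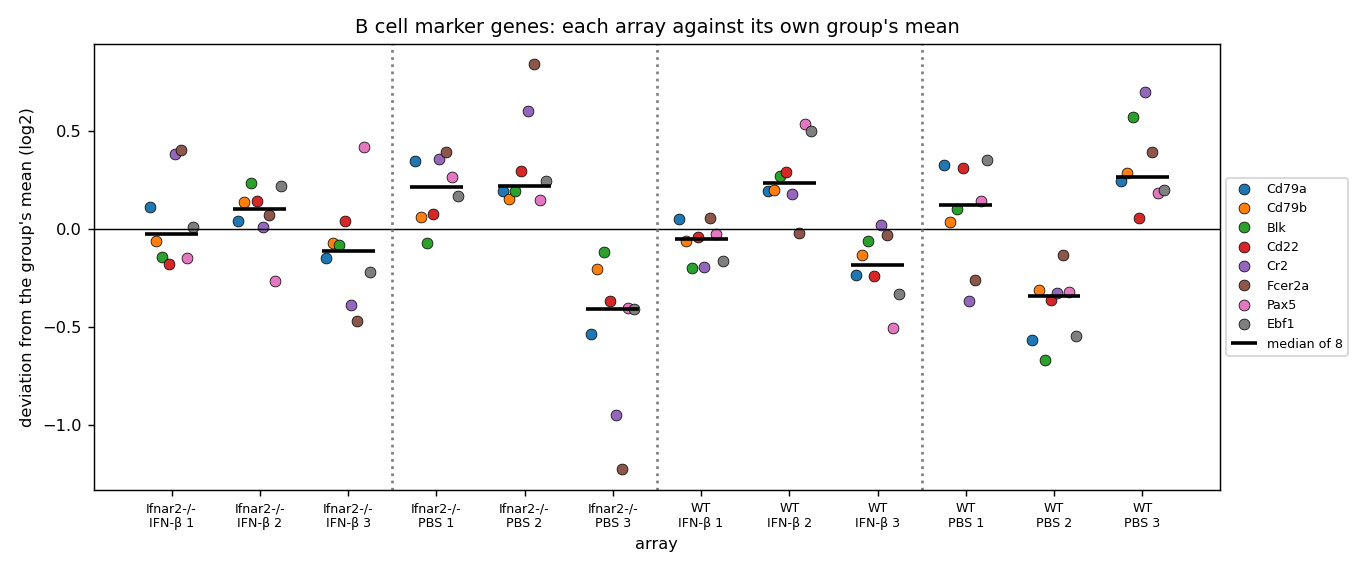
Deviation of each B cell marker gene on each array from its own group's mean (log2 units, points coloured by gene, bars at the median of the 8 genes). On wild-type PBS replicate 2 and Ifnar2-/- PBS replicate 3 all 8 points lie below 0, with medians of -0.34 and -0.41, and Cr2 and Fcer2a lie lowest on Ifnar2-/- PBS replicate 3.

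A second probe was present for Cd22, Cr2, Pax5 and Ebf1, and the gene's values above are those of its brighter probe. For Cd22 and Pax5 the probes gave like values in wild-type mice, 0.39 (adjusted p = 0.207) and 0.13 (adjusted p = 0.755) for the intron-crossing probes printed above. The Pax5 values above came from A_52_P429826, which the file annotates to AK040987, a cDNA and not the RefSeq transcript. The printed Cr2 probe was at -5.78, -5.43 and -4.27 after IFN-β and at -4.83, -4.42 and -4.06 after PBS in wild-type mice. Its log2 fold change was -0.72 (SE 0.39, adjusted p = 0.17, with 40.0% of all kept probes called), against -2.09 for the brighter probe, and replicate 3 after IFN-β lay inside the PBS range. After IFN-β that probe was higher in Ifnar2-/- than in wild-type mice by 1.51 (adjusted p = 0.0111, with 38.9% of kept probes called), the same direction as the brighter probe.

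The Ebf1 probes disagreed. The dimmer probe, A_52_P531838, is annotated to the cDNA AK036716. In wild-type mice it changed by -0.31 (SE 0.33, adjusted p = 0.501), against -2.21 for the brighter probe. After IFN-β it was lower in Ifnar2-/- than in wild-type mice, by -0.97 (adjusted p = 0.0413), whereas the brighter probe was higher by 1.30. With the mean of both probes, Ebf1 had -1.26 (adjusted p = 0.00273) in wild-type mice after IFN-β, 0.17 (adjusted p = 0.635) between Ifnar2-/- and wild-type mice after IFN-β and 0.82 (adjusted p = 0.158) for the difference between responses. The mean of both Cr2 probes had -1.41 (adjusted p = 0.0112), 2.09 (adjusted p = 0.00123) and 1.27 (adjusted p = 0.13) in the same comparisons.

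Genes whose pattern over the 12 arrays was closest to each B cell gene were ranked by the root mean square difference of centred log2 levels, among 15281 genes well above background on all arrays. Nearest to Cr2 were Cpm (0.22), Pla2g2d (0.25) and Hvcn1 (0.31), a proton channel gene, against a spread of 1.22 for Cr2 itself. Nearest to Fcer2a were Pla2g2d (0.28), Cpm (0.37) and Trim7 (0.41), so that Cr2 and Fcer2a shared 2 of 3 neighbours. Ebf1 was nearest to Tbx6 (0.22), Kbtbd11 (0.26) and AK078238 (0.27), and Blk to Stard10 (0.16), Chrnb1 (0.17) and Zscan18 (0.19). Cd79a was nearest to Mzb1 (0.12), a gene of antibody-secreting cells and B-1 cells, then to Smc6 (0.13) and Pkp3 (0.17). Cd79b had Eif4b (0.07), B230337E12Rik (0.09) and Abhd6 (0.09), Cd22 had NAP052591-1 (0.13), Glyctk (0.13) and the signalling adaptor Blnk (0.13), and Pax5 had Malt1 (0.15), Bri3bp (0.16) and Sdr39u1 (0.17).

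Other B cell marker genes divided in the same comparison. Of 23 tested, 10 were lower and 1 was higher after IFN-β in wild-type mice, with a median of -0.53, against 21.8% of all genes lower and 17.6% higher. Ccr6, a chemokine receptor of B cells, had -1.63 (SE 0.20, adjusted p = 0.000107) and Vpreb3 had -1.37 (SE 0.43, adjusted p = 0.026), which was called in 16 of 22 other settings. Vpreb3 was not called with the slide as a block (adjusted p = 0.207), without any 1 of the wild-type IFN-β arrays (adjusted p = 0.0517 to 0.0779) or without wild-type PBS replicates 2 or 3 (adjusted p = 0.0533 and 0.0867). Cxcr5, Fcmr, Fcrla, Tnfrsf13b, Chst3, H2-Ob, Fcrl1 and Cd37 made up the rest of the lower genes, from -1.19 to -0.53. Cd180, a Toll-like receptor relative on B cells and macrophages, was higher by 1.62 (SE 0.21, adjusted p = 0.000177). The immunoglobulin heavy chain gene Ighm (-0.06, SE 0.12) and Ms4a1, which encodes CD20 (0.16, SE 0.18), did not pass.

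In Ifnar2-/- mice 0 of these 23 genes were called after IFN-β, against 1.13% of all genes, with a median of -0.21. The difference between the Ifnar2-/- and wild-type responses was called for Ccr6 (1.66, adjusted p = 0.00244), Fcrl5 (1.47, adjusted p = 0.0202) and Cd180 (-2.07, adjusted p = 0.000924), which is 3 of 23, against 17.8% of all genes. Between Ifnar2-/- and wild-type mice after IFN-β, 9 were higher and 3 were lower, against 38.5% of all genes called. H2-Ob was also higher in Ifnar2-/- mice after PBS, by 3.31 (SE 0.24, adjusted p = 3.99e-05).

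**Figure D4:**
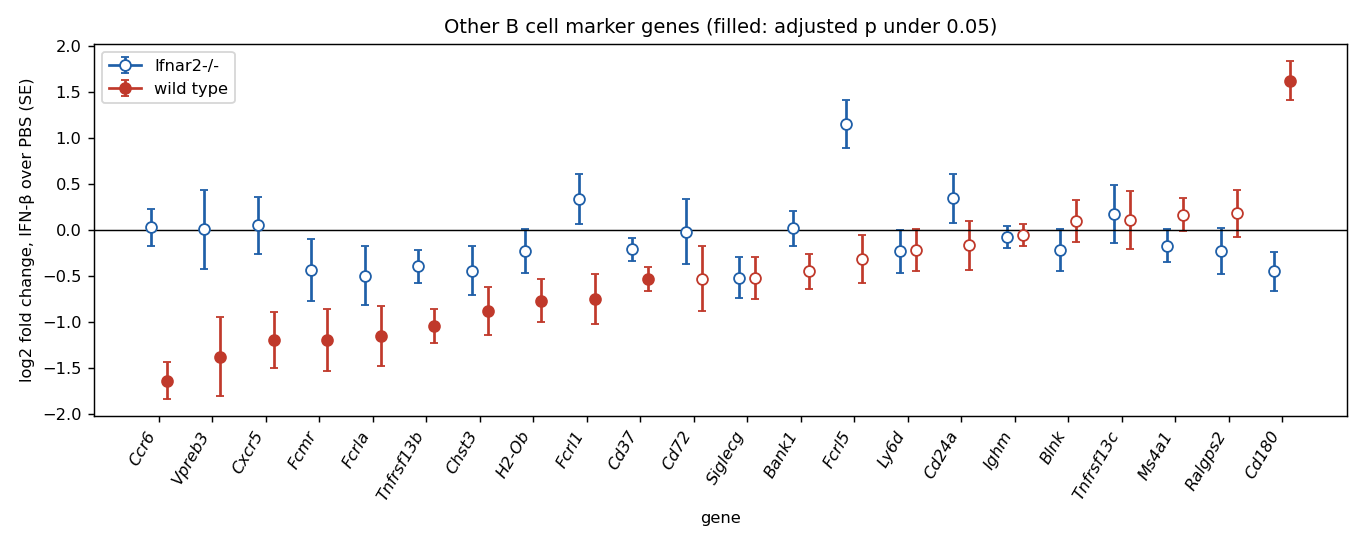
Log2 fold change of IFN-β over PBS with its SE for 22 of the 23 other B cell marker genes in Ifnar2-/- and wild-type mice, ordered by the wild-type value (filled points: adjusted p under 0.05). In wild-type mice 10 genes are filled below 0, from Ccr6 (-1.63) to Cd37 (-0.53), and Cd180 (1.62) is filled above 0, while no Ifnar2-/- point is filled.

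Of 20 antigen receptor signalling genes, 3 were higher and 5 lower after IFN-β in wild-type mice, with a median of -0.42. That share of called genes is close to the 39.4% over all genes. Pik3ap1, an adaptor for PI3-kinase, had 3.13 (SE 0.13, adjusted p = 5.72e-08) and Fcgr2b, the inhibitory Fc receptor, 1.26 (SE 0.15, adjusted p = 9.56e-05). Both are also expressed by macrophages. Dapp1 (-1.15, adjusted p = 0.00817) and Cd81 (-0.55, adjusted p = 0.0092) were lower, and both calls were lost with the slide as a block (adjusted p = 0.0531 for Dapp1 and 0.215 for Cd81). Of 18 B lineage transcription factors, 4 were higher and 5 lower, with a median of 0.01, against 39.4% of all genes called. Irf8 was higher by 0.99 (SE 0.13, adjusted p = 0.000221) and Irf4 had -1.37 (SE 0.31, adjusted p = 0.00551). Bcl11a had 0.80 (adjusted p = 0.031) and was called in 13 of 22 other settings. Bcl11a was not called after quantile normalization (0.48, adjusted p = 0.194), with no scaling, with no filter on dim probes, with the slide (adjusted p = 0.224) or replicate number as a block or with the arrays of the compared groups alone. It also lost its call without wild-type IFN-β replicates 1 or 2 (adjusted p = 0.0651 and 0.104) or wild-type PBS replicate 2 (0.48, adjusted p = 0.09). Ikzf3 had -0.92 (adjusted p = 0.00447), but -0.17 (adjusted p = 0.494) with the mean of its probes, and it was not called with the slide as a block (adjusted p = 0.066). Pou2af1, the octamer co-activator of B cells, had -0.04 (SE 0.21, adjusted p = 0.916).

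Among 14 B cell activation and survival genes, 5 were higher and 0 lower in wild-type mice, against 17.6% of all genes higher. The co-stimulatory receptor Cd40 had 2.63 (SE 0.14, adjusted p = 2.94e-07) and the early activation marker Cd69 had 2.43 (SE 0.36, adjusted p = 0.000402). Of 6 plasma cell markers 2 were higher, Prdm1 by 1.46 (SE 0.25, adjusted p = 0.00093) and Xbp1 by 0.76 (SE 0.14, adjusted p = 0.00132), and 4 were not called. Which cells of the wash these changes came from was not tested, for these 2 lists or the transcription factors above. In Ifnar2-/- mice 1 of the 14 activation genes was higher, against 1.13% of all genes called. The signalling, transcription factor and plasma cell lists had no call there.

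Markers of other cells in the wash were counted in the same comparison. Of 17 T cell markers 11 were lower after IFN-β in wild-type mice and none was higher, against 21.8% of all genes lower, with a median of -0.90, including Thy1 (-2.09, SE 0.22, adjusted p = 3.83e-05) and Tcf7 (-1.96, SE 0.37, adjusted p = 0.00178). Their summed linear level was 10.9 to 16.2 times the 75th percentile on the IFN-β arrays and 19.8 to 31.1 times on the PBS arrays of wild-type mice. The same sum of the 8 B cell genes overlapped: 100.7 to 130.2 after IFN-β and 115.8 to 175.3 after PBS. Cd79b, the brightest, made up most of that sum, so its overlap is largely that of Cd79b and says little of the other genes. The sum of the 23 other B cell markers also overlapped, at 489 to 580 and 492 to 642. In Ifnar2-/- mice 0 of the 17 T cell markers were called, against 1.13% of all genes. Their summed levels there were 16.0 to 19.9 after IFN-β and 18.2 to 27.2 after PBS. The receptor chain Cd3e (-0.28, adjusted p = 0.313) and Cd4 (-0.13, adjusted p = 0.671) were not called in wild-type mice. The part of T cells in the result for Ebf1, Blk, Cr2 and Fcer2a was not tested.

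Of the other lists in wild-type mice, 4 of 7 natural killer cell markers were higher and 2 lower, 2 of 7 large peritoneal macrophage markers were higher and 2 lower, and 1 of 9 neutrophil markers was lower. Over all genes 17.6% were higher and 21.8% lower, and with so few markers a list these counts are given as a description. Of 6 mast cell markers 3 were lower, of 11 mesothelial and stromal markers 4 were lower, of 7 plasmacytoid dendritic cell markers 2 were higher and 2 lower, and of 6 dendritic cell markers 1 was higher and 2 lower. The summed level of the macrophage markers was 455 to 507 after IFN-β and 375 to 551 after PBS. On no array of a group above background were 1 plasmacytoid dendritic cell marker, Siglech, after IFN-β in wild-type mice and 1 dendritic cell marker after IFN-β in Ifnar2-/- mice. The mast cell sum was 172 to 198 after IFN-β and 199.6 to 280.2 after PBS in wild-type mice. The neutrophil sum spanned 17.5 to 24.8 after IFN-β and 10.4 to 109 after PBS in wild-type mice, and 21.5 to 200 after IFN-β and 12.4 to 17.4 after PBS in Ifnar2-/- mice. Their part in the results for the B cell genes was not tested.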

How the data were processed

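Total RNA of peritoneal exudate cells was measured on 12 single-colour arrays. Per the file headers, the authors quantified them with Agilent Feature Extraction 9.5.3.1 on a grid named for mm7, and the deposited processed signals are linear intensities with background subtracted and not normalized between arrays. The deposited mean and background signals, used in an alternative, are intensities before that step. The deposited value table of the series holds the same processed intensities (0 of 45018 values differed per array), so it was not analysed separately.

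The processed intensity was divided by the array's 75th percentile and log2 taken. Outlier spots were left out and spots of a probe averaged. A probe was kept if well above background on all 3 arrays of a group and valued on at least 6 arrays (27715 of 41174). A gene was its brightest kept probe. One limma 3.58.1 fit in R 4.3.3 (lmFit and eBayes, 4 group means, 8 residual and 2.38 prior degrees of freedom) covered 18274 genes, and p-values were adjusted by Benjamini-Hochberg over all of them. Named genes were all 8 members, up to 2 called genes of each other list in each direction by largest wild-type change, and the 3 nearest genes of each member; Ifnar2, Ighm, Ms4a1, Pou2af1, H2-Ob, Fcrl5, Cd3e, Cd4 and the further called B cell markers were named after their values were seen. The members and lists were chosen with earlier results of these data known. The fit was also run on simulated data with independent noise and no slide effect. That run cannot show how slides or shared B cell content affect the calls, and no result here rests on it. Values of 1 listed B cell marker are not reported here, although it is counted in its lists. The number of arrays limits the precision. Same-numbered IFN-β and PBS arrays deviated together in Ifnar2-/- mice (r = 0.10 to 0.51, arrays that also shared a slide) and not in wild-type mice (r = -0.12 to 0.03), and no source says that a number marks a shared experiment.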

Additional observations from a re-analysis of the deposited data

Results flagged for a closer look

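The response to IFN-β differed between genotypes for 3 of the B cell genes by the test of the difference itself, the Ifnar2-/- response minus the wild-type response in limma. The values were 2.26 for Fcer2a (adjusted p = 0.0319, 0.0129 to 0.123 over the other settings that kept all arrays), 1.91 for Cr2 (adjusted p = 0.0446, 0.0189 to 0.13) and 1.80 for Ebf1 (adjusted p = 0.0123, 0.00401 to 0.158). With the slide as a block none of the 3 passed (adjusted p = 0.123 for Fcer2a, 0.103 for Cr2 and 0.0543 for Ebf1), and only the second of the 3 slides held both genotypes. On the probe used for each gene all 3 IFN-β arrays of wild-type mice lay below the wild-type PBS arrays, while the arrays of Ifnar2-/- mice overlapped. On the dimmer probes of Cr2 and Ebf1 the wild-type groups overlapped too. How many of all genes had non-overlapping arrays in wild-type mice alone was not counted, and 17.8% of all genes were called for the difference. The difference was 0.63 for that Cr2 probe and -0.17 for that Ebf1 probe, and neither was called. For Cr2 and Ebf1 the highest adjusted p came from the mean of both probes.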

How the results depend on the processing

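In wild-type mice the 4 called genes were called in all 22 other settings, with 4 to 5 genes called in settings that kept all arrays and 4 to 6 without 1 array. These settings reuse the same arrays and are not independent, and leaving out an Ifnar2-/- array does not change the wild-type estimates. The difference between responses was less stable: against 3 calls, 1 gene was called with no filter on dim probes, 1 with the mean of a gene's probes and 0 with the slide as a block, and 1 to 3 without 1 array. Cr2 was kept in 3 of the 9 other settings with all arrays, Fcer2a and Ebf1 in 7 each, and with Blk gained up to 4 genes were called (no scaling; trended, robust eBayes). Relative to Cd79a and Cd79b the same settings gave 1, 1 and 0 against 3, Cd79a alone as the reference gave 1, and leaving out 1 array gave 1 to 3. Ifnar2-/- against wild type after IFN-β gave 2 calls with the slide as a block, against 4, and 3 to 4 without 1 array. With the median of the 8 genes as the reference in wild-type mice, 2 genes were called, Cd22 (1.80, adjusted p = 0.000118) and Pax5 (1.64, adjusted p = 0.000384), both higher, and Blk turned to 0.21 (adjusted p = 0.575). Fcer2a (-0.75, adjusted p = 0.0606), Ebf1 (-0.52, adjusted p = 0.144) and Cr2 (-0.40, adjusted p = 0.29) were not called on that scale. The median includes the 4 genes that fell, and the pair of Cd79a and Cd79b also had estimates below 0 (-0.68 and -0.35). Leaving out 1 array gave 3 to 5 calls relative to Cd79a and Cd79b in wild-type mice. With replicate number as a block, Cr2 lost its call in the difference between responses (1.91, adjusted p = 0.0729; 1.69, adjusted p = 0.0641, relative to Cd79a and Cd79b), and no other call of the 8 genes changed. With no scaling between arrays the median of all genes in wild-type mice was -0.21, with 2159 genes higher and 4901 lower, against 3217 and 3988 with scaling. After IFN-β, Ifnar2-/- against wild type then had 7636 higher and 1813 lower, against 3887 and 3140. Other causes were not tested. Each group had 3 arrays, and the second Ebf1 probe was well above background on 11 of 12; what limits the calls was not tested.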
